A study of Mus musculus with 19 samples.

Results

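The genes described here encode subunits of ISWI chromatin remodelling complexes: Smarca5, Baz1a, Baz1b and Bptf. Their accessible regions were the peaks of one deposited consensus list that overlapped 4 windows of the mouse genome, build mm39. These windows were chr8:81405000-81486000 for Smarca5, chr12:54920000-55080000 for Baz1a, chr5:135195000-135295000 for Baz1b and chr11:106905000-107045000 for Bptf. Together they held 51 of the 140383 peaks in the list. Smarca5 had 5 peaks, Baz1a 16, Baz1b 11 and Bptf 19.

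The peaks came from ATAC-seq, in which the transposase Tn5 inserts sequencing adapters into open DNA, on primary bone marrow-derived macrophages from mice. SMARCA5 knockout cells (Smarca5 lox/lox with Csf1r-Cre, 10 samples) were compared with wild-type cells that also carried Csf1r-Cre (9 samples). Both were differentiated for 7 days with daily 4-hydroxytamoxifen, so all groups shared this drug and the Cre transgene, which is driven by regulatory sequence of the macrophage receptor gene Csf1r. Within each genotype, cells were untreated, or were stimulated for 1 or 2 h with LPS (10 ng/ml) or with interferon beta (100 U/ml). There were 2 samples in 9 groups, whereas the wild-type group with interferon beta for 1 h had 1. No sample is named in the list, which holds a single value per peak for each measure. The effects of the deletion and of the stimuli on these loci, and the loss of the deleted part of Smarca5 itself, were therefore not measured. There is no replicate error and the depth is unknown. The values are the authors' own and only describe and rank peaks within this list.

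ISWI complexes use ATP to slide nucleosomes and to space them evenly. SMARCA5, also called SNF2H, is the ATPase of several of them, and its partners set where and how it works. BAZ1A (ACF1) joins it in the ACF and CHRAC complexes, and BAZ1B (WSTF) joins it in the WICH complex. BPTF is the largest subunit of NURF, where it reads methylated and acetylated histone tails. The paired mammalian ATPase of NURF was first described as SMARCA1, a close relative of SMARCA5.

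Promoter sequences of 3 of the 4 genes were matched by symbol in a RefSeq table of another build, GRCm38.p6, and are shown so that the sequence around each gene start can be read beside its accessible regions. Each runs 5′ to 3′ on the strand of its gene, from 250 bases before the annotated start into the transcript, 300 bases in all. Capitals mark matches on either strand to 12 short motifs. Coordinates of the sequences are GRCm38.p6 and cannot be set beside those of the peaks, so no peak was assigned to a promoter. Smarca5 lies at chr8:80739410-80739709 (minus strand), Baz1b at chr5:135187073-135187372 (plus strand) and Bptf at chr11:107132098-107132397 (minus strand).
Smarca5 promoter: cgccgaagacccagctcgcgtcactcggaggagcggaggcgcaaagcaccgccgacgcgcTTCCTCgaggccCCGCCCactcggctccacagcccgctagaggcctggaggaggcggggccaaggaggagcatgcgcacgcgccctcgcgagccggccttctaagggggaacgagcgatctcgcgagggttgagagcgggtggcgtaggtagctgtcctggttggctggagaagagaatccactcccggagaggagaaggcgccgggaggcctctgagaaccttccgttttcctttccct
Baz1b promoter: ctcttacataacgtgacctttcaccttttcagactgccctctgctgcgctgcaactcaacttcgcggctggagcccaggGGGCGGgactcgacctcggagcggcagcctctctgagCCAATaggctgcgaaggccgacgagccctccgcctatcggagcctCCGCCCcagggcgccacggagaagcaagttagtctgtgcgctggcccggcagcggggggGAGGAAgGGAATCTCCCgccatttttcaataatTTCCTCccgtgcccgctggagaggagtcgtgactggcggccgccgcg
Bptf promoter: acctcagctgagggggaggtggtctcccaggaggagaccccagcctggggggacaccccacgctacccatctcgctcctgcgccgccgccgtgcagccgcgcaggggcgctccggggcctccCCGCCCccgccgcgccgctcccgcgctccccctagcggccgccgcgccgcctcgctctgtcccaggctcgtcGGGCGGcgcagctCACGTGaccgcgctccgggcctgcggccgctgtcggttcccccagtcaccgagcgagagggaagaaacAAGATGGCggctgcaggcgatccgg

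All 3 promoters were rich in G and C. The Smarca5 promoter had 67.7% G+C and 32 CpG dinucleotides, the Baz1b promoter 64.7% and 27, and the Bptf promoter 76.3% and 39, against medians of 52.7% and 7 over 32841 promoters in the table. In G+C content they exceeded 86.8%, 81.1% and 97.1% of all promoters, in the same order. Over the promoters of 16 other ISWI and remodeller genes, those matched of 23 listed, the medians were 65.7% G+C and 27.5 CpG dinucleotides.

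The GC box, GGGCGG, the binding sequence of Sp and KLF factors, was the one motif found in all 3 promoters, and 35.7% of all promoters hold it. It also occurred in 12 of the 16 matched remodeller genes. GAGGAA, a core bound by the macrophage factor PU.1 and other ETS proteins, was present in the Smarca5 and Baz1b promoters, and in 28.3% of all promoters. In Baz1b it appeared at bases 221 to 226, and its reverse complement at bases 254 to 259. Between these lay a kappa B match (GGGA and TTCC with 2 bases between them, here on the opposite strand as GGAATCTCCC) at bases 228 to 237, a motif found in 1.47% of all promoters. Baz1b also held a CCAAT box (CCAAT, 37.4% of promoters) at bases 117 to 121. Bptf held an E-box (CACGTG, 7.15% of promoters) at bases 208 to 213. It also held AAGATGGC, the core of the YY1 motif, at bases 276 to 283, within the transcript, and 2.75% of promoters hold that sequence. Of the 16 matched remodeller genes, 2 held GAGGAA, 8 the CCAAT box, 1 the E-box, 0 the kappa B motif and 0 the YY1 core. None of the 3 promoters held the ETS core CCGGAA, the AP-1 motif TGANTCA, the cyclic AMP response element TGACGTCA, an interferon response motif (GAAA at both ends with 2 bases between them), the NRF1 motif (GCGC on both sides of AT) or the C/EBP motif TTGCNNNAA. Overlap between motifs did not occur in these matches, and a match describes letters, not binding.

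The 4 loci differed in how many accessible regions they held for their size. Bptf had 13.6 peaks per 100 kb of window, Baz1b 11.0, Baz1a 10.0 and Smarca5 6.17. Their chromosomes averaged 8.49 peaks per 100 kb for Bptf (chromosome 11), 5.81 for Baz1b (chromosome 5), 4.98 for Baz1a (chromosome 12) and 5.29 for Smarca5 (chromosome 8). Relative to its chromosome, Baz1a was therefore the densest at 2.01 times, followed by Baz1b at 1.89, Bptf at 1.60 and Smarca5 at 1.17 times. Peaks covered 4.14% of the Bptf window, 3.30% of the Baz1a window, 3.11% of the Baz1b window and 1.72% of the Smarca5 window. The order by density rested on weak peaks. Of peaks at or above the list's median −log10 q, 45.3, Baz1b had 8 per 100 kb, Baz1a 6.25, Bptf 5.71 and Smarca5 1.23. Chromosome averages were not computed for these peaks alone.

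**Figure D1:**
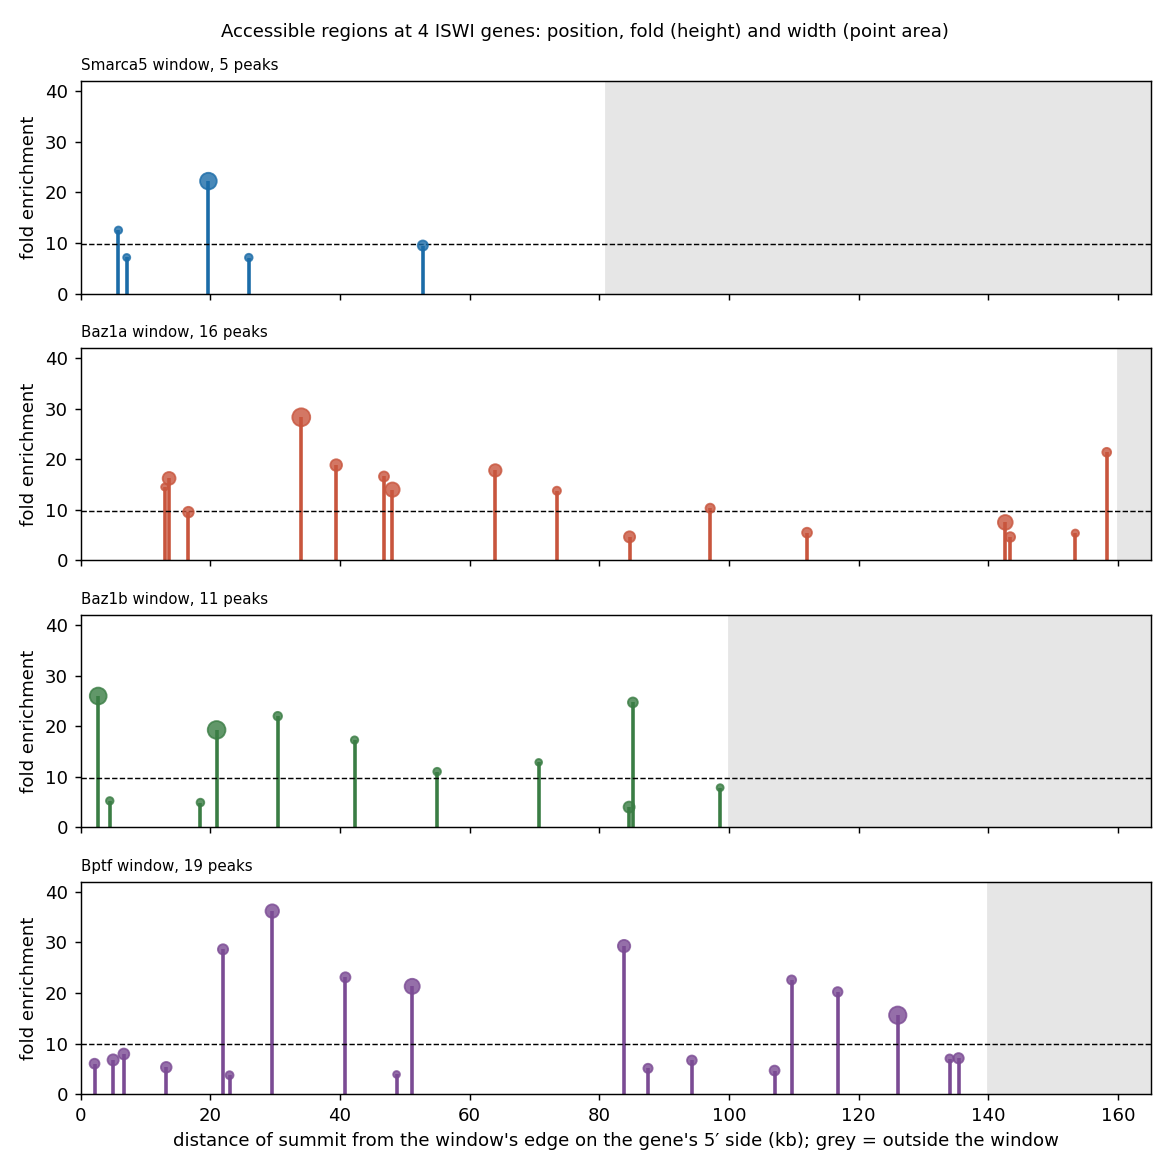
Each of the 51 peaks is drawn at the distance of its summit from the window's edge on the 5′ side of the gene (kb, x axis), with its fold enrichment over local background as height and its width as point area. The dashed line is the median fold of the whole list, 9.85. Smarca5 shows a single tall peak, Baz1a a tall group on its 5′ side, and Baz1b and Bptf tall peaks along the window.

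The 51 peaks spread more widely in strength than the list did. Their median fold was 11.0, with quartiles of 6.37 and 19.7, against 9.85 with quartiles of 6.71 and 15.7 in the whole list. Their median −log10 q was 48.0, with quartiles of 16.0 and 168, against 45.3 with quartiles of 22.4 and 116. Folds of 20 or more were found at 13 of the 51 (25.5%), against 15.0% of all peaks, and 7 of the 13 were at Bptf. At the other end, 19 of the 51 (37.3%) lay below the list's lower quartile of −log10 q. Bptf supplied 11 of these 19, against 4 at Baz1a, 2 at Baz1b and 2 at Smarca5, so both shares lean on that locus. Regions of 500 bp or more made up 15.7% of these peaks, 8 in number, against 7.35% of the list. Peaks of 1 locus are neighbours on the same DNA and are not replicates, so these shares are descriptions with no test.

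At Smarca5, the ATPase gene deleted in the knockout cells, 1 region led the window by fold, −log10 q and width. That region, chr8:81465821-81466531, was 711 bp wide with a fold of 22.2 and a −log10 q of 740, which exceeded 97.5% of all peaks. Its summit lay 19.7 kb from the 5′ edge of the window. It held 87.9% of the summed −log10 q of the window and 51.1% of its covered bases. The next by fold was chr8:81480090-81480230, a peak of 141 bp on the 5′ side with a fold of 12.5 and a −log10 q of 42.4. The third was chr8:81433183-81433447, a peak of 265 bp with a fold of 9.49 and a −log10 q of 27.5. The remaining 2 peaks, 127 and 148 bp wide, had folds of 7.13 and 7.11 and −log10 q values of 15.9 and 16.1. Only the leading peak thus passed the median −log10 q of the list. No peak was listed over the 28.2 kb at the 3′ end of the window, and the nearest peak past that end was 184.9 kb beyond it. In the GRCm38.p6 annotation, the protein-coding neighbours of Smarca5 are Gab1 on its 5′ side and Frem3 on its 3′ side.

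Baz1a, which encodes the ACF1 partner, had most of its strong regions on the 5′ side, with 1 exception near the 3′ edge. The leading peak, chr12:55045580-55046401, was 822 bp wide, the widest of the 51. It had a fold of 28.3, above 95.7% of the list, and a −log10 q of 459. Its summit was 34.0 kb from the 5′ edge of the window. Further from that edge followed chr12:55040461-55040807, 347 bp wide with a fold of 18.8 and a −log10 q of 102. Beyond it lay a pair of peaks 953 bp apart, with folds of 16.6 and 14.0 and −log10 q values of 183 and 153. On the 5′ side of the leading peak lay 3 peaks with folds of 14.5, 16.2 and 9.55.

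The 9 peaks of Baz1a nearest its 5′ edge, out to 73.5 kb, had folds from 9.55 to 28.3. The 7 peaks nearer its 3′ edge were mostly weak, with folds from 4.63 to 10.3 in all except the last. That last peak, chr12:54921651-54921849, had the second highest fold of the locus, 21.4, a width of 199 bp and a −log10 q of 112. It lay 1.65 kb inside the window's 3′ edge. The longest stretch of the window without a peak, 30.1 kb, was also on the 3′ side, from 54937762 to 54967823. The protein-coding neighbours in GRCm38.p6 are 2700097O09Rik on the 5′ side and Cfl2 on the 3′ side. A long non-coding RNA gene, Gm51983, and a small nuclear RNA gene, Gm24296, lie inside Baz1a in that annotation, so peaks of the window need not belong to Baz1a. The same holds for the other windows and their neighbouring genes.

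Baz1b, which encodes the WSTF partner, held 2 regions of very high −log10 q. The first, chr5:135197142-135197866, was 725 bp wide with a fold of 26.0 and a −log10 q of 951, the highest of the 51 and above 98.6% of the list. Its summit was only 2.71 kb from the 5′ edge of the window, on the side where Bcl7b is the neighbouring gene in GRCm38.p6, and whether it belongs to Baz1b or to that gene was not determined. The second, chr5:135215561-135216366, was 806 bp wide, the widest of the locus, with a fold of 19.3 and a −log10 q of 878. Its summit was 21.0 kb from that edge. Further along the window, chr5:135225316-135225501, 186 bp wide, had a fold of 22.0 and a −log10 q of 186. The peak chr5:135280021-135280270, 250 bp wide, had a fold of 24.7 and a −log10 q of 201. With 10 kb removed from each end of the window, the peak of fold 24.7 was the highest. The other 7 peaks had folds from 4.00 to 17.2, and 7 of the 11 peaks of the locus were under 200 bp wide. The longest stretch without a peak was 15.5 kb, the shortest such maximum of the 4 loci. The 3′ neighbour in GRCm38.p6 is Fzd9.

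Bptf, the gene of the large NURF subunit, combined the highest fold with the most weak regions. Its leading peak, chr11:107015268-107015733, had a fold of 36.2, the highest of the 51 and above 99.6% of the list. It was 466 bp wide with a −log10 q of 734, and its summit lay 29.6 kb from the 5′ edge. The next by fold were chr11:106960902-106961292, with a fold of 29.3 and a −log10 q of 290, and chr11:107022888-107023155, with a fold of 28.6 and a −log10 q of 420. The widest peak, chr11:106918529-106919302, measured 774 bp with a fold of 15.6 and a −log10 q of 203. In all, 7 of its 19 peaks reached a fold of 20, against 3 of 11 at Baz1b, 2 of 16 at Baz1a and 1 of 5 at Smarca5. Over the whole list the share was 15.0%.

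The peaks of Bptf fell into a strong and a weak set. In the strong set were 8 peaks with folds from 15.6 to 36.2 and −log10 q values from 106 to 734. In the weak set were 11 peaks with folds from 3.76 to 7.95 and −log10 q values from 7.47 to 21.0. By construction, no fold lay between the sets. With 10 kb removed from each end of the window, 6 of the weak and all 8 of the strong peaks were left, and the median fold was 17.9, against 7.11 in the whole window. All 11 weak peaks were below the list's lower quartile of −log10 q, which ranks peaks much as fold does. All 8 strong peaks had summits from 22.0 to 126.0 kb from the 5′ edge, with weak peaks among them. The peaks nearer either edge were all weak. Within 3 kb of a strong peak lay 3 weak ones. The longest stretch without a peak was 32.2 kb, from 106961293 to 106993492. The neighbouring protein-coding genes in GRCm38.p6 are Nol11 on the 5′ side and 1810010H24Rik on the 3′ side. Just past the 3′ edge, 1.16 kb outside the window, was a further strong region, 733 bp wide with a fold of 24.2 and a −log10 q of 409.

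**Figure D2:**
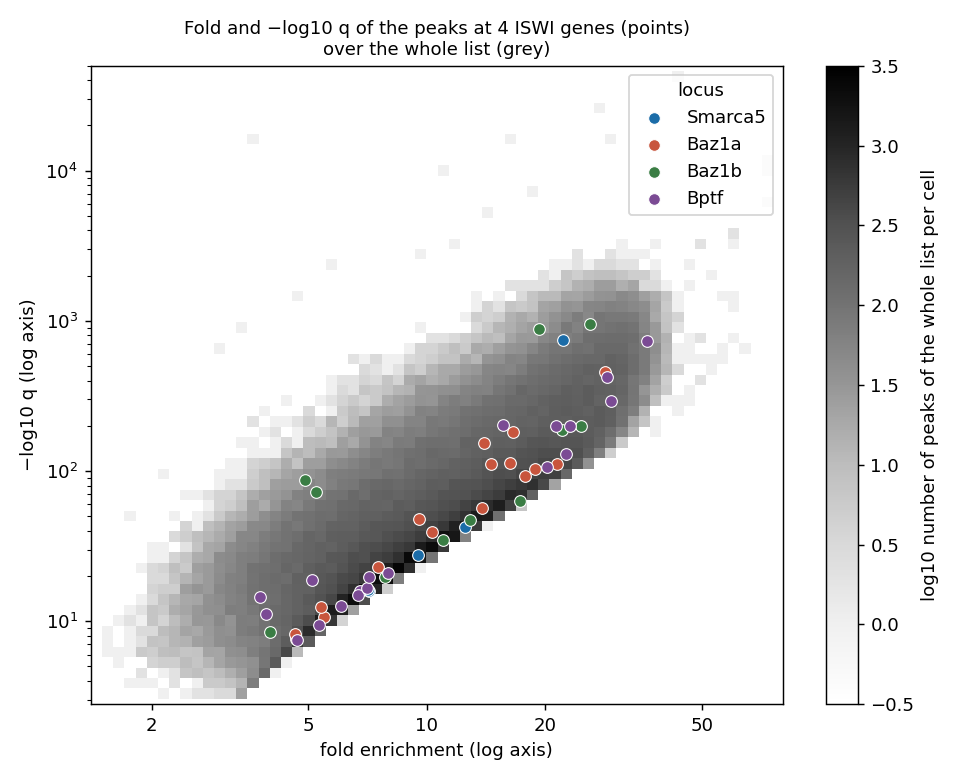
Fold enrichment (x axis, log) and −log10 q (y axis, log) of the 51 peaks, coloured by locus, over the number of peaks of the whole list per cell (grey). The leading peaks of Smarca5 and Baz1b sit above most peaks of their fold, while the leading peak of Bptf has the highest fold, 36.2.

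Fold and −log10 q ranked the 51 peaks in much the same order, with a Spearman's rho of 0.904, against 0.836 over the whole list. Both come from the same reads, so the relation is a description across peaks. To compare peaks of like fold, the −log10 q of each was divided by the median of all peaks in the same hundredth of the list by fold. This ratio was at least 3 at 5 of the 51 peaks (9.80%), against 11.4% of the list, and 4 of the 5 lay in the Baz1b window.

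At Baz1b the 4 peaks nearest the 5′ edge of the window had ratios of 3.03, 5.21, 6.90 and 6.32, in that order from the edge. Ratios of the other 7 ranged from 0.546 to 0.902. Those 4 were the 2 wide regions and a narrow, low-fold peak near each. These narrow peaks, named after their values were seen, were chr5:135199417-135199562, with a fold of 5.23 and a −log10 q of 73.0, and chr5:135213428-135213578, with a fold of 4.90 and a −log10 q of 87.5. At Bptf, the 3 peaks with folds of 4.68, 5.11 and 5.33 had −log10 q values of 7.47, 18.7 and 9.46 in that order. The leading peak of Smarca5 had a ratio of 3.59 and that of Baz1a 1.29. The leading peak of Bptf, with the highest fold of all, had a ratio of 1.16.

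**Figure D3:**
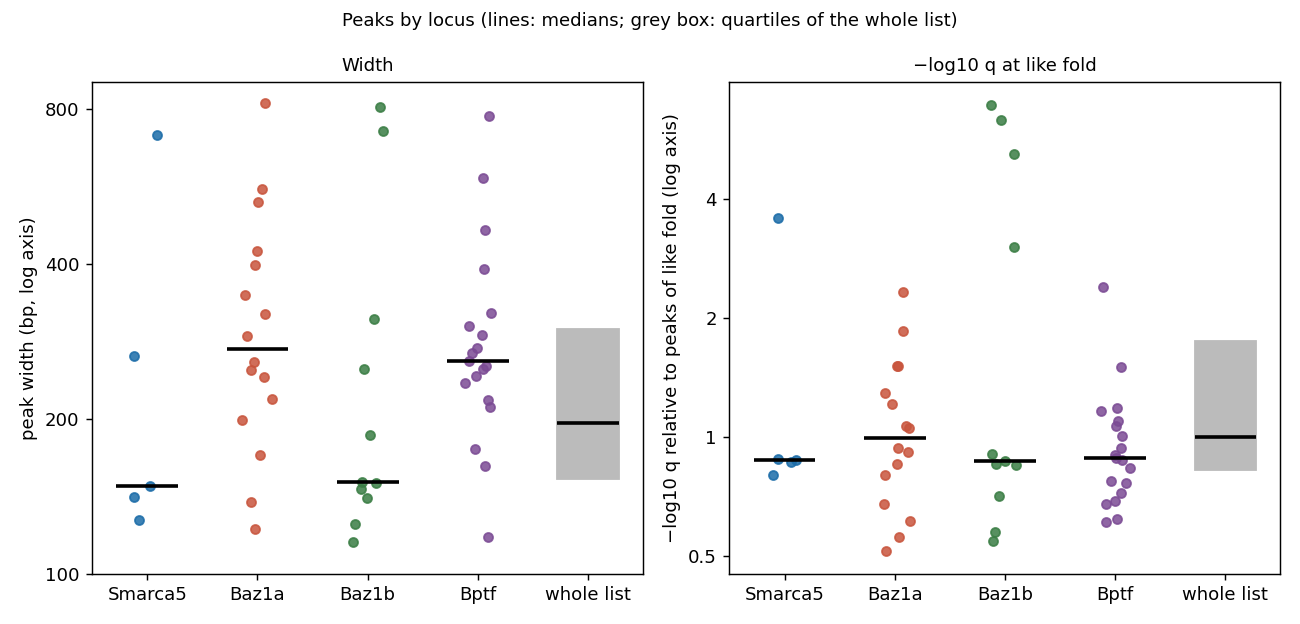
Peak width (left, bp, log axis) and −log10 q relative to the median of peaks of like fold (right, log axis) for each peak by locus; black lines are medians and the grey box spans the quartiles of the whole list. The median width was 148 bp at Smarca5 and 151 bp at Baz1b, against 273.5 bp at Baz1a and 259 bp at Bptf, with 196 bp in the whole list; in the window shortened by 10 kb at each end, the Smarca5 median was 265 bp.

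Width divided the loci differently from strength. Baz1a and Bptf had median widths of 273.5 and 259 bp, above the list's 196 bp, whereas Smarca5 and Baz1b, at 148 and 151 bp, were below it. The Smarca5 median rests on 5 peaks: in the window shortened by 10 kb at each end it was 265 bp, and the only peak at or above the list's median −log10 q was 711 bp wide, both above the list's median. Each locus held at least 1 region of 500 bp or more: 3 at Baz1a, 2 at Baz1b, 2 at Bptf and 1 at Smarca5. In the 8 wide regions the median fold was 20.3 and the median −log10 q 331, and the other 43 peaks had medians of 9.49 and 39.5. The corresponding medians over the list were 21.2 and 361 for wide peaks and 9.39 and 41.1 for the rest. The leading peak by fold was also the widest of its locus at Smarca5 and Baz1a but not at Baz1b or Bptf. The only wide region of the 8 below the list's median fold was at Baz1a, chr12:54937203-54937761, which was 559 bp wide with a fold of 7.52 and a −log10 q of 23.0.

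The summit lay at different points of the leading regions, and its position was not compared with the whole list. Measured along the strand of the gene, from 0% at the 5′ end of the peak, it lay at 33.5% of the peak at Smarca5, 52.3% at Baz1a and 62.2% at Bptf. In the 2 wide regions of Baz1b it lay at 78.5% and 50.8%. The sources used here do not say how the authors chose a single summit for a consensus peak.

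The deposited score, which lay up to 1 below 10 times the −log10 q, was often not a whole number. Whole-number multipliers from 1 to 20 were tried, and the smallest that made the score whole, to within 1e-06, was 20 for 12 of the 51 peaks (23.5%), against 14.6% of the list. A score that needs a multiplier above 1 is not itself a whole number. The multiplier of 20 exceeds the 19 samples of the series, and how the scores were formed was not tested. By locus, the peaks with a multiplier of 20 were 5 at Bptf, 3 at Baz1a, 2 at Baz1b and 2 at Smarca5, the leading peaks of Smarca5 and Bptf among them. At the other extreme, multipliers of 1 or 2 were found for 15 peaks (29.4%), against 31.0% of the list. Of the 15, 8 were weak peaks of Bptf and 5 lay at Baz1a. Which samples entered a score cannot be read from the list.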

How the data were processed

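ATAC-seq was collected from 19 samples in 10 groups, with groups taken from the titles. The build was mm39, and MACS2 2.2.7.1, deepTools 3.5.1, Picard 2.27.4 and STAR 2.7.9a were among the tools, per the submitters' processing notes. The sources used here do not give their roles, any read shifting, the peak threshold or the way samples were combined. The authors deposited one consensus peak list. Its columns follow the narrowPeak layout: per peak the authors deposited a score (close to 10 times the −log10 q), a fold enrichment (a ratio over local background), a −log10 q and a summit offset, each combined over samples in a way not stated. The depth per sample is unknown, so no interval was computed from depth.

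Starts were read as counted from 1, since no summit then fell outside its peak, against 74 when counted from 0. A peak belonged to a locus when it overlapped the window by at least 1 base. No test was run, because the list names no sample. The search for motifs and overlaps was tested on simulated data. The members, windows, motifs and gene lists were chosen with earlier results of these data known. For each locus, the 3 peaks of highest fold, that of highest −log10 q and the widest were named by a written rule. Alternatives were a summit inside the window, a stricter threshold, merging of touching peaks and windows shortened by 10 kb at each end. Gene starts of mm39 were not used here, so start-site peaks, peaks by position in the gene, start-site peaks of other remodeller genes and checks of cell type markers were not analysed here. Promoter sequences and neighbouring genes came from RefSeq tables of GRCm38.p6. Computation used pandas 2.3.3 with numpy 2.4.6 under Python 3.11.15, and scipy 1.17.1 for intervals. Figures were drawn with matplotlib 3.10.9.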

Additional observations from a re-analysis of the deposited data

How the results depend on the processing

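Of 118 alternative values over 34 results, 98 stayed within 1.5 times (peak number, density, motif counts), within a 95% interval (order statistics for medians, or their whole range with 5 peaks; binomial for covered share) or on the same peak (strongest peak), and 20 did not. At Smarca5, every alternative used some or all of its 5 peaks, so its medians could not leave their whole range. With peaks below the list's median −log10 q removed, its median −log10 q was 740, against 27.5, and counted as unmoved. A summit inside the window and merging of touching peaks could move none, since every peak lay wholly inside its window and none touched another. Each of these settings gave 24 of the 98 unmoved values. With peaks below the list's median −log10 q removed, there remained 1 peak at Smarca5, 10 at Baz1a and 8 at Bptf, or 1.23, 6.25 and 5.71 per 100 kb. Covered shares were then 0.878% at Smarca5, 2.22% at Baz1a, 2.52% at Baz1b and 2.28% at Bptf, and at Bptf the median fold was 22.8, the median width 329.5 bp and the median −log10 q 202. These follow from removing weak peaks. Windows shortened by 10 kb at each end left 3 peaks at Smarca5, gave covered shares of 1.84%, 3.53%, 2.64% and 3.73% at Smarca5, Baz1a, Baz1b and Bptf, and made a peak of fold 24.7 the strongest at Baz1b. They also gave a median width of 265 bp at Smarca5, and at Bptf a median fold of 17.9 and a median −log10 q of 117, inside those wide intervals but over 1.5 times the values of the whole windows. Among the bases before the start, 0 of the 3 promoters held the YY1 core. Alternatives for the median −log10 q, the upstream-only motif search, the median fold without the strongest peak and the strongest peak in the shortened window were chosen after seeing the data. Start-site settings and motifs within peaks need an mm39 reference and were left out. No paired analysis was possible because no column of the list belongs to a sample. Since the depth is unknown, a stretch with no listed peak need not be closed.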
